A study of Homo sapiens with 9 samples.

Results

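The genes described here are 10 members of the cell cycle arrest and p53 response programme. They are the cyclin-dependent kinase (CDK) inhibitors CDKN1A, CDKN1B, CDKN1C, CDKN2A, CDKN2C and CDKN2D, and the p53-associated genes GADD45A, MDM2, FAS and BBC3. They were chosen by gene name from the deposited gene table, which lists 34961 genes, and all 10 were found. RNA sequencing was done on WA09 (H9) cells, a human embryonic stem cell line, with an EGFP reporter knocked in at TPH2, the gene of the serotonin-synthesising enzyme of brain neurons. Libraries of Day0 came from human embryonic stem cells, those of Day21 from cells labelled as neural progenitors, and those of Day42 from cells labelled as TPH2+ serotonin neurons, with 3 libraries each. All 3 groups share the 1 line, the knockin and the label of an induced differentiation into serotonin neurons. The titles number the libraries of each day as biological replicates (Bio rep), without word of separate cultures or differentiations. A p-value here therefore speaks only of the spread among libraries within days. Whether that is a spread among separate differentiations was not given. In the main fit the spread of a gene was estimated over all 9 libraries, so a library of 1 day also bears on the comparison of the other 2 days. The labels do not say whether the cells of Day42 were sorted by EGFP.

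CDK inhibitors bind the kinases that drive the cell through its division cycle. The CIP/KIP proteins p21 (CDKN1A), p27 (CDKN1B) and p57 (CDKN1C) act on several cyclin and CDK complexes, whereas the INK4 proteins p16 (CDKN2A), p18 (CDKN2C) and p19 (CDKN2D) act on CDK4 and CDK6. The transcription factor p53 switches on CDKN1A, GADD45A, MDM2, FAS and BBC3 after DNA damage, and MDM2 in turn marks p53 for degradation. In the developing nervous system CDK inhibitors are known for helping precursors leave the cycle and for keeping neurons from re-entering it.

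Library totals ran over 58526466 to 66034630 counts on Day0, 63031962 to 66515692 counts on Day21 and 59429495 to 69658328 counts on Day42. Genes with a count above 0 numbered 22198 to 24359 on Day0, 24581 to 24741 on Day21 and 10797 to 17101 on Day42. Replicate 3 of Day42 had the lowest of these numbers, 10797, and its correlation with the other Day42 libraries over genes (Pearson r of log2 CPM, counts scaled by depth, 0.666 and 0.668) was below their own of 0.811, so results on the 10 genes that rest on it are given with and without it, and the gene lists with the counts found without it. Summed FPKM (fragments scaled by gene length and library depth) of 8 serotonin neuron markers were 0.565 to 1.22 on Day0, 1.79 to 1.98 on Day21 and 592 to 650 on Day42, when SLC6A4, the serotonin transporter, was listed at 0 in all 3 libraries. The 7 pluripotency markers summed to 232 to 460 FPKM on Day0, 20.3 to 28.1 on Day21 and 0.0220 to 2.50 on Day42. The 7 neural progenitor markers summed to 68.7 to 90.2 FPKM on Day0, 217 to 262 on Day21 and 67.8 to 93.4 on Day42. Most of the Day42 sum was VIM, at 58.1, 66.6 and 93.4 FPKM, with HES5 at 0 in every Day42 library, PAX6 at 0 in 2 of them and NES and FABP7 at 0 in replicate 3. The 6 markers of mesenchyme, connective tissue cells that the progenitor label does not include, summed to 1.06 to 1.96 FPKM on Day0, 107 to 114 on Day21 and 17.9 to 52.0 on Day42, with none at 0 in all libraries of a day. Most of the Day21 sum was LUM, at 77.7, 89.5 and 88.2 FPKM, and in Day42 replicate 3 LUM, COL1A2 and PDGFRB were at 0. In bulk RNA, fewer cells of a type and less RNA per cell cannot be told apart.

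Among the 10 genes, CDKN1A, CDKN2D and GADD45A rose on Day21 over Day0, with no gene called lower. On Day42, CDKN2D and GADD45A rose further over Day21, whereas FAS and CDKN2A fell to counts at or near 0. A gene was called where its p in edgeR's quasi-likelihood test, adjusted by Benjamini-Hochberg over all genes tested, was under 0.05 and its log2 fold change was at least 1 in size. All 10 genes passed the filter on low counts, as 20156 genes did. On Day21 against Day0, 3 of the 10 were called higher, where 1.32% of all genes tested were, and 0 were called lower, where 1.18% were. At an unadjusted p under 0.05, 4 members were higher and 0 lower, where 3398 of the 20156 genes passed in either direction. DESeq2 called 5 members higher and 0 lower, where it called 1389 and 1563 of all genes. On Day42 against Day21, 2 were called higher and 2 lower, against 6.52% and 19.7% of all genes, so the share that fell was close to the background. On Day42 against Day0, 3 were called higher and 2 lower, against 8.82% and 23.4% of all genes. Fits to the 2 days alone called 5 members higher and 0 lower on Day21 against Day0, where they called 12.8% and 12.1% of all genes. They called 2 higher and 2 lower on Day42 against Day21, against 4.90% and 16.6% of all genes, and 3 higher and 1 lower on Day42 against Day0, against 5.57% and 17.3%.

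Separation of the libraries by day, without regard to a test, was counted as well. In 7 of the 10 genes every Day21 library lay above every Day0 library in scaled CPM, as 24.7% of all genes tested did. On Day42 against Day21, 2 genes lay wholly above, against 11.1% of all genes, and 5 wholly below, against 34.7%. Among those wholly below, CDKN1A and MDM2 overlapped Day21 in the deposited FPKM. On Day42 against Day0, 3 lay wholly above, against 11.4% of all genes, and 2 wholly below, against 34.1%. The median log2 fold change of the 10 was 1.47 on Day21 over Day0, -0.79 on Day42 over Day21 and 1.48 on Day42 over Day0, where that of all genes tested was 0.03, -0.54 and -0.57. Scaling by total counts in place of edgeR's TMM factors put the medians of all genes at 0.14, -0.0049 and 0.0091. Under that scaling, which was chosen after seeing the data, 1998 genes were called higher and 3396 lower on Day42 over Day21, against 1315 and 3980 with TMM. On Day42 over Day0 the split was 2561 higher and 3893 lower, against 1778 and 4721 with TMM. The 3 comparisons share libraries and are not independent of each other.

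**Figure D1:**
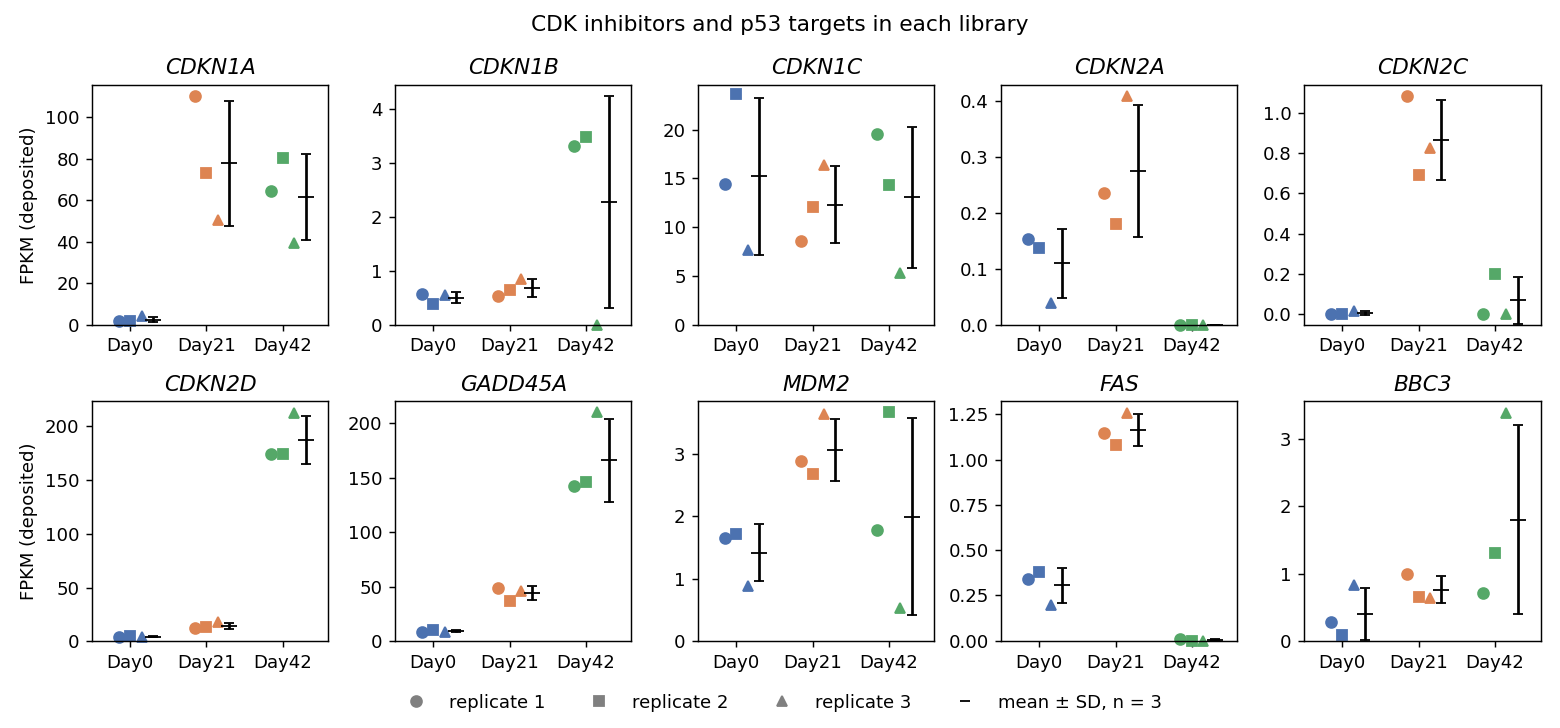
Each panel plots the deposited FPKM of 1 gene in every library by day, with 3 points per day and the mean with its SD (n = 3) beside them, on an axis of its own. CDKN2D and GADD45A are highest on Day42, at means of 187 and 166 FPKM, CDKN1A is high on Day21 and Day42, and FAS and CDKN2A are at or near 0 on Day42.

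Promoter sequences are shown for the called genes that the RefSeq table holds, CDKN1A, CDKN2D, CDKN2A and FAS, as these carry the changes. Of the 10 genes 8 matched a RefSeq promoter, and GADD45A and CDKN1C have no entry. Each line gives the 250 bases before the RefSeq start of transcription on the strand of the gene, 5′ to 3′, in build GRCh38.p14. They lie at chr6:36678464-36678713 (CDKN1A, plus strand), chr19:10568980-10569229 (CDKN2D, minus strand), chr9:21995325-21995574 (CDKN2A, minus strand) and chr10:88990548-88990797 (FAS, plus strand). Capitals mark matches, on either strand, to GGGCGG, known as the GC box, CCAAT, the CCAAT box, or CANNTG, the E-box.
CDKN1A: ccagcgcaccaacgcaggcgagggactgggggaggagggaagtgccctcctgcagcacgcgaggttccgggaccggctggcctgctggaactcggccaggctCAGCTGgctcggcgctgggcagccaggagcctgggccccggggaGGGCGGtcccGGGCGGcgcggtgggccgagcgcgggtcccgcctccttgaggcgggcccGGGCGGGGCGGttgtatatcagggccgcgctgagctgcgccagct
CDKN2D: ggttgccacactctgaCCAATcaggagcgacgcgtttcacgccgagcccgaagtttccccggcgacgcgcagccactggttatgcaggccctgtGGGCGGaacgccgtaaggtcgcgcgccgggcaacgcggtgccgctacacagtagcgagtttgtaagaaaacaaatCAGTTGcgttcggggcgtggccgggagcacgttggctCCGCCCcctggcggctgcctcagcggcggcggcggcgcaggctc
CDKN2A: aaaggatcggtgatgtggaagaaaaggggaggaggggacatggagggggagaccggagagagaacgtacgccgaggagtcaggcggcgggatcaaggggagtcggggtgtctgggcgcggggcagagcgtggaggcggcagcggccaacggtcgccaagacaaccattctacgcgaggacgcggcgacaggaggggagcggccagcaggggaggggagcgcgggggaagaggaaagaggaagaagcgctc
FAS: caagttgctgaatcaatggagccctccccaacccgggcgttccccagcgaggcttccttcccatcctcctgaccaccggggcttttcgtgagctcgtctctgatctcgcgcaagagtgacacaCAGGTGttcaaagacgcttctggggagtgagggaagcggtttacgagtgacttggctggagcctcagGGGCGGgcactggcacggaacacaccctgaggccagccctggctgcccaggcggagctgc

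GGGCGG matched 4 times in CDKN1A, 2 times in CDKN2D, 1 time in FAS and 0 times in CDKN2A, and 42.6% of 35114 RefSeq promoters of the same length hold it. In CDKN1A the matches nearest to the start, at bases -45 to -40 and -40 to -35, share a base. CANNTG matched 1 time each in CDKN1A, CDKN2D and FAS, and 61.8% of all promoters hold it. CCAAT matched 1 time, in CDKN2D at -234 to -230, and 32.0% hold it. TATAA, the TATA box, and the p53-binding decamer matched in 0 of the 8 promoters, against 18.9% and 5.57% of all promoters. None of the matches in these 4 sequences overlapped a match to another motif. The G and C content was 76.4% in CDKN1A, 67.6% in CDKN2D, 66.8% in CDKN2A and 62.8% in FAS, against a median of 58.0% over all promoters. The windows say nothing of sites further away. CDKN2A yields both p16 and ARF, and its window belongs to a single RefSeq start, beyond the deposited 5′ end of the gene at chr9:21994873. Which of these products starts there was not given in the sources used here, so the window is not to be read as that of p16. For the other genes, too, a single RefSeq start was used. The windows of CDKN1A and FAS lie within the deposited genes, which begin at chr6:36676460 and chr10:88990531. That of CDKN2D reaches into its gene, whose deposited 5′ end is at chr19:10569059.

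CDKN1A encodes p21, the inhibitor through which p53 halts the cycle. It lies at chr6:36676460-36687337 on the plus strand (GRCh38, the build of the deposited coordinates). Its level per library was 1.98, 1.58 and 3.97 FPKM on Day0, 110.1, 72.9 and 50.4 FPKM on Day21, and 64.5, 80.3 and 39.2 FPKM on Day42. Every Day21 and Day42 library was far above every Day0 library, and the FPKM ranges of Day21 and Day42 overlapped. The log2 fold change was 4.90 ± 0.46 (SE) on Day21 over Day0 (edgeR, adjusted p = 0.00199), or 29.9-fold, with mean scaled CPM of 319 ± 94.5 on Day21 and 10.7 ± 4.46 on Day0 (SD, n = 3 each). On Day42 over Day0 it was 3.93 ± 0.44 (edgeR, adjusted p = 0.000589), or 15.2-fold, and 4.54 with total-count scaling. On Day42 over Day21 it was -0.98 ± 0.39 and missed the threshold (edgeR, adjusted p = 0.104), although each Day42 library lay below each Day21 library in scaled CPM. A noncoding gene on the opposite strand, DINOL, overlaps CDKN1A and had 0 to 1.30 FPKM in the 9 libraries. The summed mesenchyme markers above were also higher on Day21 and Day42 than on Day0, although on Day42 not each marker was. Most of the Day21 sum was LUM, and the part of these markers in the CDKN1A level was not tested.

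CDKN2D, which encodes the INK4 protein p19 and is known for its expression in postmitotic neurons, was highest on Day42. The gene lies at chr19:10566460-10569059 on the minus strand. It had 3.73, 4.78 and 4.17 FPKM on Day0, 12.7, 13.1 and 17.6 FPKM on Day21, and 174, 174 and 213 FPKM on Day42. No library of one day overlapped those of another, and the order of the days was the same throughout. Log2 fold changes were 3.04 ± 0.29 on Day42 over Day21 (edgeR, adjusted p = 0.000524), or 8.21-fold, and 4.77 ± 0.32 on Day42 over Day0 (edgeR, adjusted p = 9.41e-05), or 27.2-fold, the second being 5.39 with total-count scaling. The change was 1.73 ± 0.28 on Day21 over Day0 (edgeR, adjusted p = 0.0181), or 3.31-fold. That call was lost without replicate 1, 2 or 3 of Day0 and without replicate 2 or 3 of Day21. Adjusted p-values ran up to 0.120 over all 18 settings tried. The log2 fold change ranged only over 1.53 to 1.86 in these settings, so no single library set its size. Markers of neurons, 7 in number with none at 0 in all libraries of a day, summed to 5.90 to 18.8 FPKM on Day0, 108 to 155 on Day21 and 1424 to 1749 on Day42, and their part in the CDKN2D level was not tested.

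The remaining CIP/KIP genes made no call. CDKN1B, which encodes p27, at chr12:12715058-12722369 on the plus strand, had 0.572, 0.390 and 0.546 FPKM on Day0, 0.525, 0.641 and 0.855 FPKM on Day21, and 3.33, 3.49 and 0 FPKM on Day42. Replicates 1 and 2 of Day42 were the highest of all libraries, and replicate 3, with a count of 0, was the lowest. On Day42 its log2 fold change was 1.05 ± 1.65 over Day21 (edgeR, adjusted p = 0.728) and 1.43 ± 1.66 over Day0 (edgeR, adjusted p = 0.581). Without Day42 replicate 3 both passed (edgeR, adjusted p = 0.0378 over Day21 and 0.0151 over Day0), so 1 library decides whether CDKN1B is called. The 95% interval on Day21 over Day0, from -3.35 to 4.11 on the log2 scale, spans both directions widely.

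CDKN1C, which encodes p57 and is known as an imprinted gene, lies at chr11:2883213-2885771 on the minus strand. It had 14.4, 23.7 and 7.64 FPKM on Day0, 8.56, 12.04 and 16.4 FPKM on Day21, and 19.6, 14.3 and 5.28 FPKM on Day42. The ranges of all 3 days overlapped, and the spread within a day was as wide as the differences between days. Its log2 fold change was -0.36 ± 0.61 on Day21 over Day0 (95% interval -1.76 to 1.04), -0.61 ± 0.61 on Day42 over Day21 (-2.01 to 0.79) and -0.97 ± 0.62 on Day42 over Day0 (-2.37 to 0.44), with edgeR adjusted p-values of 0.939, 0.553 and 0.283.

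CDKN2A, whose products are the INK4 protein p16 and the p53-stabilising protein ARF, lies at chr9:21967753-21994873 on the minus strand. Counts were low throughout, at 48, 49 and 14 for Day0, 88, 67 and 143 for Day21 and 0 in each library of Day42, or 0.153, 0.137 and 0.0391 FPKM on Day0 and 0.235, 0.180 and 0.407 FPKM on Day21. Every Day42 library was at 0, below every other library. Counts in the table pile up at multiples of 4, so a count of 0 was taken to allow up to 12 counts per library, which on Day42 is a mean of 0.146 CPM and covers counting error only. Against that limit, CDKN2A on Day42 was lower by at least 11.6-fold than on Day21 (edgeR, adjusted p = 0.00433) and by at least 5.01-fold than on Day0 (edgeR, adjusted p = 0.00467). The Day42 over Day0 call did not hold with voom (adjusted p = 0.0550), 1 of 16 other settings. On Day21 over Day0 the log2 fold change was 1.21 ± 0.97 (edgeR, adjusted p = 0.699), with every Day21 library above every Day0 library. The table does not separate the transcripts of p16 and ARF.

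CDKN2C, which encodes p18, at chr1:50960745-50974634 on the plus strand, had 0, 0 and 0.0158 FPKM on Day0, 1.08, 0.691 and 0.824 FPKM on Day21, and 0, 0.201 and 0 FPKM on Day42. It was detected in all Day21 libraries, with 280, 174 and 201 counts, and otherwise in Day0 replicate 3, with 4, and Day42 replicate 2, with 44. The Day0 mean, 0.0217 CPM, lay under the limit for a count of 0, 0.227 CPM, and the Day21 mean was 15.9 times that limit. The call was missed on Day21 over Day0 (edgeR, adjusted p = 0.192) and on Day42 over Day21 (edgeR, adjusted p = 0.202). On Day21 over Day0 it was made under 5 of 16 other settings, those without Day42 replicate 2 or 3 among them. The fall on Day42 over Day21, -4.37 on the log2 scale, was called in 2 of 16, with voom (-6.31, adjusted p = 0.0388) and without Day42 replicate 2, the only Day42 library with counts (-10.81, edgeR, adjusted p = 0.0128). CDKN2B, the INK4 gene p15, was not called in any comparison, and its Day42 levels were 3.50, 0 and 0.0117 FPKM.

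**Figure D2:**
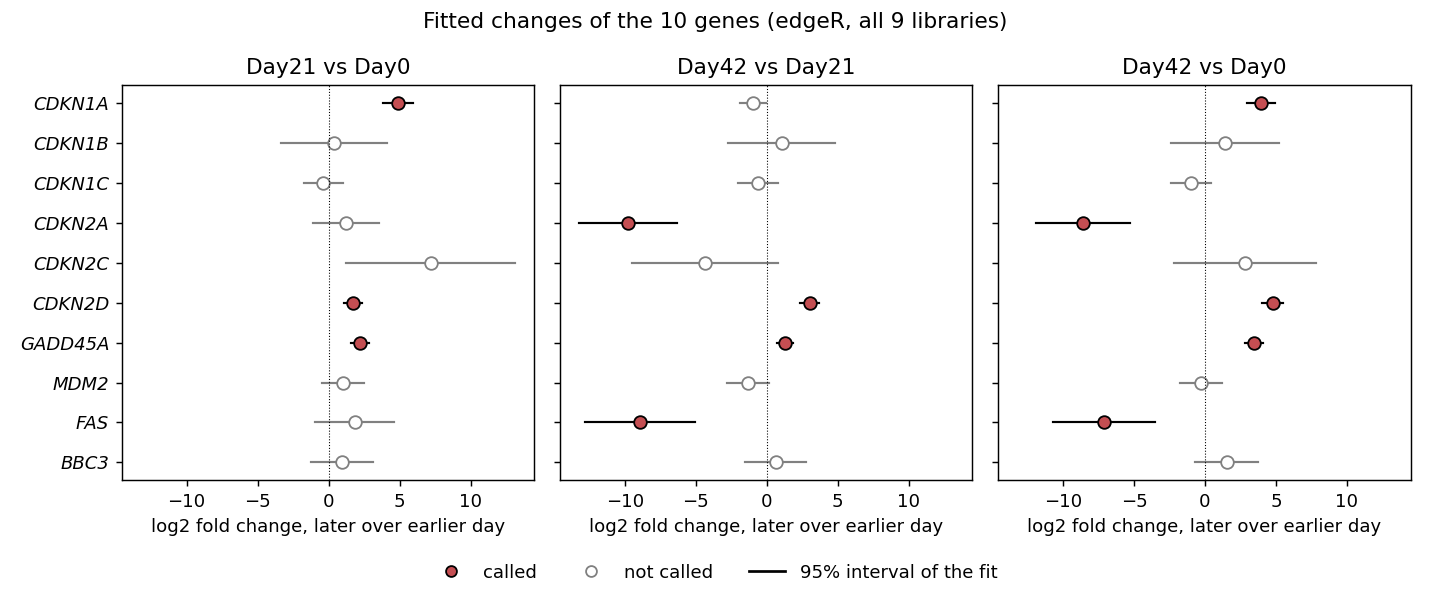
Log2 fold changes of the 10 genes in the 3 comparisons, later day over earlier day, with 95% intervals, from edgeR fitted to all 9 libraries. Filled points are called genes, 3 of them on Day21 over Day0, and intervals of genes with libraries at 0, such as FAS and CDKN2A, are wide.

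Of the p53-associated genes, GADD45A rose at each step. Its product binds CDK1 and PCNA and takes part in DNA repair and in the arrest before mitosis. The gene lies at chr1:67685201-67688334 on the plus strand. It had 8.30, 10.3 and 8.77 FPKM on Day0, 49.0, 37.2 and 46.5 FPKM on Day21, and 142, 146 and 210 FPKM on Day42. The 3 days did not overlap. The log2 fold change was 2.21 ± 0.26 on Day21 over Day0 (edgeR, adjusted p = 0.00469), or 4.64-fold, 1.27 ± 0.25 on Day42 over Day21 (edgeR, adjusted p = 0.00749), or 2.42-fold, and 3.49 ± 0.28 on Day42 over Day0 (edgeR, adjusted p = 0.000156), or 11.2-fold, the last being 4.11 with total-count scaling. All 3 calls held in each of the 18 other settings.

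MDM2, the ubiquitin ligase that limits p53, lies at chr12:68808177-68850686 on the plus strand. It had 1.66, 1.71 and 0.892 FPKM on Day0, 2.88, 2.68 and 3.63 FPKM on Day21, and 1.78, 3.68 and 0.538 FPKM on Day42. Every Day21 library lay above every Day0 library, whereas the Day42 libraries ran from the lowest to the highest FPKM of all. In scaled CPM each Day42 library lay below each Day21 library. Changes on the log2 scale were 1.03 ± 0.64 on Day21 over Day0 (edgeR, adjusted p = 0.531) and -1.31 ± 0.65 on Day42 over Day21 (edgeR, adjusted p = 0.185). The fall on Day42 was called without Day42 replicate 2 alone among the settings (edgeR, adjusted p = 0.0467). MDM2 overlaps 4 other gene models, among them the gene of carboxypeptidase M on the other strand at 0 to 1.01 FPKM, and the way their reads were divided was not given in the sources used here.

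FAS encodes a death receptor of the cell surface and lies at chr10:88990531-89017059 on the plus strand. It had 0.340, 0.379 and 0.198 FPKM on Day0, 1.15, 1.08 and 1.26 FPKM on Day21, and 0.00940, 0 and 0 FPKM on Day42. On Day42 the 3 libraries held 4, 0 and 0 counts, below every library of the other days, which held 92 to 571. The Day42 mean, 0.0171 CPM, was under the limit for a count of 0, and the Day21 and Day0 means were 62.9 and 17.5 times that limit. FAS was called lower on Day42 than on Day21 (edgeR, adjusted p = 0.00589) and than on Day0 (edgeR, adjusted p = 0.00951). The call over Day0 did not hold in 2 of the 18 other settings, the fit to the 2 days alone and limma on log2(FPKM + 1), at adjusted p-values up to 0.0570. The fitted log2 fold changes, -8.94 ± 1.69 and -7.09 ± 1.57, depend on the single library with counts and were -12.16 and -10.33 without Day42 replicate 1. On Day21 over Day0 the log2 fold change was 1.85 ± 1.22 (edgeR, adjusted p = 0.568), a call made in 4 of the 18 other settings. ACTA2, the smooth muscle actin gene, overlaps FAS on the other strand and had 0.229 to 0.535 FPKM on Day0, 29.8 to 37.8 FPKM on Day21 and 0 to 7.99 FPKM on Day42. The summed mesenchyme markers were highest on Day21 as well. With the strand setting of the counter not given in the sources used here, reads of ACTA2 and FAS cannot be told apart where they overlap, and the part of either in the Day21 level was not tested.

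BBC3 encodes PUMA, a BH3-only protein that starts cell death at the mitochondrion, and lies at chr19:47220822-47232766 on the minus strand. It had 0.287, 0.0923 and 0.832 FPKM on Day0, 0.991, 0.661 and 0.646 FPKM on Day21, and 0.716, 1.30 and 3.38 FPKM on Day42. The days overlapped, and the highest value was that of Day42 replicate 3. Its log2 fold change was 0.91 ± 0.95 on Day21 over Day0, 0.62 ± 0.95 on Day42 over Day21 and 1.53 ± 0.97 on Day42 over Day0 (edgeR, adjusted p = 0.809, 0.719 and 0.278). Without Day42 replicate 3 the change on Day42 over Day21 was -0.26.

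Ordered by mean FPKM within a day, the leading gene differed each time. On Day0 the order began with CDKN1C at 15.2 ± 8.05, GADD45A at 9.11 ± 1.03, CDKN2D at 4.23 ± 0.527 and CDKN1A at 2.51 ± 1.28 FPKM (SD, n = 3). The ranges of CDKN1C and GADD45A overlapped there, as did those of CDKN2D and CDKN1A. On Day21 CDKN1A led with 77.8 ± 30.1, before GADD45A at 44.2 ± 6.23, CDKN2D at 14.4 ± 2.71 and CDKN1C at 12.3 ± 3.91 FPKM, and of these neighbours CDKN2D and CDKN1C overlapped. On Day42 CDKN2D at 187 ± 22.3 and GADD45A at 166 ± 37.9 FPKM overlapped each other, and CDKN1A followed at 61.4 ± 20.8 and CDKN1C at 13.1 ± 7.23 FPKM, each apart from its neighbours. The other 6 genes had a day mean between 0 and 3.07 FPKM on every day.

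Among the kinases and cyclins that these inhibitors act on, several fell on Day42, and the count on Day21 depended on the fit. Of 9 tested G1 cyclins and their kinases, 0 were called in either direction on Day21 over Day0 (unadjusted p under 0.05 for 2 higher and 0 lower, DESeq2 1 and 0), and 4 fell on Day42 over Day21, where 19.7% of all genes did. The fit to the 2 days alone called 3 higher and 2 lower on Day21 over Day0, where it called 12.8% and 12.1% of all genes. On Day42 over Day21 it called 3 lower, where it called 16.6% of all genes lower. Without Day42 replicate 3 the counts were 2 higher and 1 lower, and 6 lower, when 1489 and 1502 of all genes were called on Day21 over Day0 and 2417 and 4850 on Day42 over Day21. The median log2 fold change of the list was 0.49 on Day21 over Day0 and -3.72 on Day42 over Day21. CDK4, the kinase that INK4 proteins bind, had 213 scaled CPM in Day0 libraries, 219 in those of Day21 and 36.8 in those of Day42, a log2 fold change of -2.57 ± 0.24 on Day42 over Day21 (edgeR, adjusted p = 0.000449). CCNE2, a cyclin of the entry into DNA synthesis, was at 0 in all Day42 libraries, at least 132-fold lower than on Day21 (edgeR, adjusted p = 0.000791). CCND2, a D-type cyclin, had 0.405 CPM on Day42 and 63.7 on Day21 (edgeR, adjusted p = 0.00583), a log2 fold change of -7.29 that was -7.89 without Day42 replicate 1 and -6.65 without replicate 2. CCND1, another, had mean levels of 38.5 CPM for Day0, 469 CPM for Day21 and 15.6 CPM for Day42. Its fall on Day42 over Day21 (log2 fold change -4.91, edgeR, adjusted p = 0.0320) did not hold in 10 of the 18 other settings, among them without any 1 library of Day0 or Day21 and without Day42 replicate 1, at adjusted p-values up to 0.0905. It was -6.34 without Day42 replicate 2 and -4.32 without replicate 3.

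Of 8 tested cyclins of S and M phase, their kinase and its phosphatase, 0 were called on Day21 over Day0 and 4 fell on Day42 over Day21. Of all genes tested, 19.7% fell on Day42 over Day21. On Day21 over Day0, 0 passed an unadjusted p under 0.05 and DESeq2 called 0. Without Day42 replicate 3, 6 fell on Day42 over Day21, when 4850 of the 20156 genes tested did. CCNB2, a mitotic cyclin, had 0.0316 CPM on Day42 and 238 on Day21. CCNB1, its paralog, had 7.80 CPM on Day42 and 501 on Day21 (edgeR, adjusted p = 0.0118), and CCNA2, the cyclin of DNA synthesis, 0.402 on Day42 and 77.0 on Day21 (edgeR, adjusted p = 0.00393). The log2 fold change of CCNB1, -6.00, was -6.68 without Day42 replicate 1 and -5.40 without replicate 3, and that of CCNA2, -7.58, was -10.12 without Day42 replicate 1. CDC25C, the phosphatase that opens the way into mitosis, had 0.0198 CPM on Day42, under the limit for a count of 0, and 23.1 on Day21. The CCNB2 and CDC25C means on Day21 were 1633 and 159 times that limit, and no fitted fold is given for them because it moves with the few counts of single Day42 libraries. Of 13 pocket proteins and E2F factors, 0 were called on Day21 over Day0 (unadjusted p under 0.05 for 0, DESeq2 1 higher) and 6 fell on Day42 over Day21. The 2 days alone gave 2 higher and 1 lower on Day21 over Day0, where they called 12.8% and 12.1% of all genes. On Day42 over Day21 they gave 3 lower, where they called 16.6% of all genes lower. Leaving out Day42 replicate 3 gave 1 higher and 1 lower on Day21 over Day0, when 1489 and 1502 of all genes were called. It gave 1 higher and 6 lower on Day42 over Day21, when 2417 and 4850 were called. E2F1, a factor that drives entry into S phase, was at 0 in all Day42 libraries, at least 146-fold lower than on Day21 (edgeR, adjusted p = 0.00261). E2F2 and E2F8 had Day42 means under the limit as well, with Day21 means 29.1 and 8.63 times it, and the call of E2F8 did not hold in 2 of 16 other settings. RBL1, the pocket protein p107, was called lower on Day42 than on Day21 at an adjusted p of 0.0413 (edgeR), which did not hold in 10 of 16 other settings, among them without any 1 library of Day0 or Day21, at adjusted p-values up to 0.132. Its Day42 mean was under the limit too.

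Markers of proliferation, 15 genes of DNA replication and mitosis, mostly fell on Day42. Their summed level was 407, 478 and 538 FPKM on Day0, 569, 465 and 494 FPKM on Day21, and 45.9, 59.7 and 52.3 FPKM on Day42. The Day21 libraries lay within or just above the range of Day0, and each Day42 library lay far below both. On Day21 over Day0, 0 of 15 were called (unadjusted p under 0.05 for 1 higher and 0 lower, DESeq2 0), while CDKN1A, CDKN2D and GADD45A rose. The 2 days alone gave 1 higher and 2 lower there, where they called 12.8% and 12.1% of all genes. Leaving out Day42 replicate 3 gave 1 higher, when 1489 of all genes were called higher. On Day42 over Day21, 11 fell and 0 rose, where 19.7% and 6.52% of all genes did. The 2 days alone gave 9 lower, against 16.6% of all genes. Leaving out Day42 replicate 3 gave 13 lower, when 4850 of the 20156 genes tested were called lower. MKI67, the antigen Ki-67, had 50.4 CPM in Day0 libraries, 95.9 in those of Day21 and 0.0657 in those of Day42 (edgeR, adjusted p = 0.000100 on Day42 over Day21). PLK1 and AURKB, kinases of mitosis, had 0.0485 and 0.0433 CPM on Day42 and 165 and 149 CPM on Day21, which is 1132 and 1023 times the limit for a count of 0. BUB1, a kinase of the spindle checkpoint, was at 0 on Day42, at least 283-fold lower than on Day21 (edgeR, adjusted p = 0.000177). Whether a difference between lists was larger than chance was not tested.

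**Figure D3:**
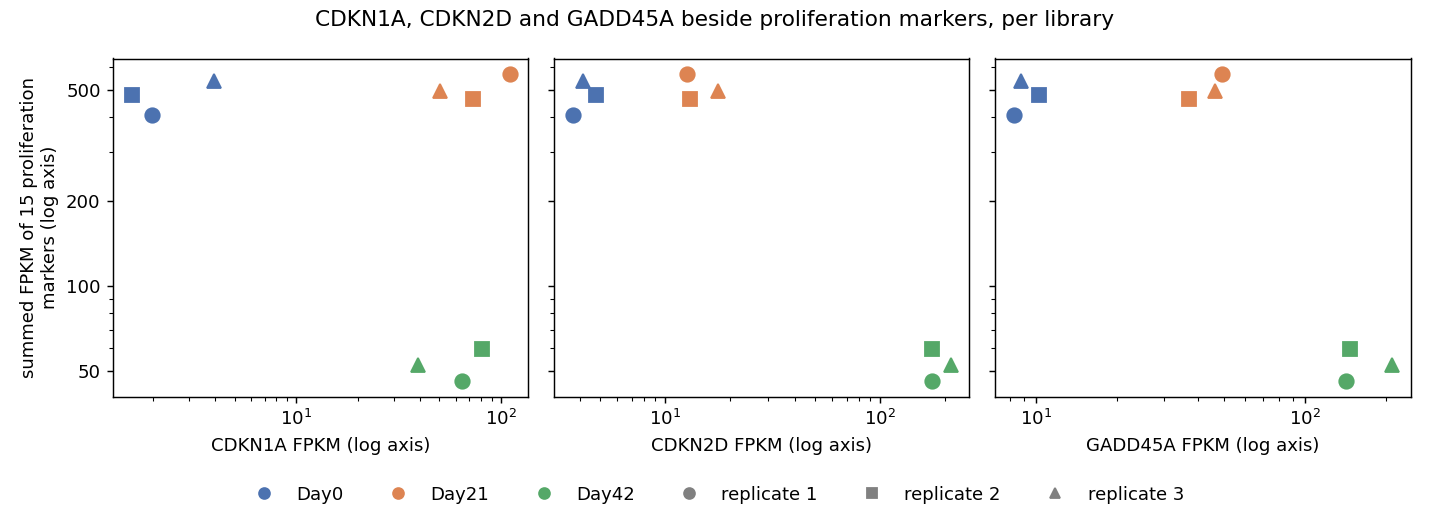
Each point is 1 library, with the FPKM of CDKN1A, CDKN2D or GADD45A across and the summed FPKM of 15 proliferation markers up, both on log axes. Day21 libraries sit right of Day0 at a like height, 465 to 569 against 407 to 538 FPKM, and Day42 libraries sit low, at 45.9 to 59.7 FPKM.

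The turnover of CDKN1B protein runs through SKP2, CKS1B and their ligase, and 6 genes of it were tested. Of these, 1 fell and 0 rose on Day42 over Day21, where 19.7% and 6.52% of all genes did, so the share that fell was near the background. Without Day42 replicate 3, 2 fell and 1 rose, when 4850 and 2417 of the 20156 genes tested did. CKS1B, the adaptor by which p27 is recognised, had 736 CPM in Day0 libraries, 697 in those of Day21 and 14.6 in those of Day42, a log2 fold change of -5.58 ± 0.42 on Day42 over Day21 (edgeR, adjusted p = 0.000242). FBXW7, a ligase subunit that targets cyclin E, was higher on Day42 than on Day0, at 33.3 and 7.29 CPM (edgeR, adjusted p = 0.0326). That call did not hold in 9 of the 18 other settings, among them without replicate 1 or 3 of Day0, any 1 library of Day21 or Day42 replicate 2, at adjusted p-values up to 0.110. Its log2 fold change of 2.19 was 3.03 without Day0 replicate 2.

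In the p53 branch, none of 12 tested members and regulators of the p53 family was called on Day21 over Day0 (unadjusted p under 0.05 for 1 higher and 1 lower, as called by DESeq2). On Day42 over Day21, 2 rose and 3 fell, where 6.52% and 19.7% of all genes did. The 2 days alone gave 0 and 3, against 4.90% and 16.6% of all genes. CHEK2, a kinase that activates p53 after DNA breaks, had 48.0 CPM in Day0 libraries, 31.6 in those of Day21 and 0.246 in those of Day42, and its log2 fold change on Day42 over Day21, -7.00, was -9.91 without Day42 replicate 1. HIPK2, a kinase that phosphorylates p53, was higher, with 22.1 CPM on Day42 and 3.28 on Day0 (log2 fold change 2.75 ± 0.52, edgeR, adjusted p = 0.00476, and 3.40 with total-count scaling). TP73, a p53 homologue, was at 0 on Day42, at least 3.72-fold lower than on Day21 (edgeR, adjusted p = 0.00458), a call that did not hold in 2 of 16 other settings, at adjusted p-values up to 0.0694.

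Beside CDKN1A and GADD45A, the count of other p53 targets of arrest, repair and metabolism called on Day21 depended on the fit. Of 22 tested, 0 were called on Day21 over Day0, with a median log2 fold change of 1.25. At an unadjusted p under 0.05, 3 were higher and 1 lower, where 3398 of the 20156 genes tested passed in either direction. DESeq2 also called 3 higher and 1 lower, where it called 1389 and 1563 of all genes. A fit with the 2 days alone called 10 higher and 1 lower, where it called 12.8% and 12.1% of all genes. Without Day42 replicate 3 the counts were 5 and 1, when 1489 and 1502 of all genes were called. On Day42 over Day21, 2 rose and 2 fell, where 6.52% and 19.7% of all genes did, with a median of -1.29, or -1.18 with genes at 0 set to their bound. Without Day42 replicate 3, 2 rose and 7 fell, with a median of -0.69, when 2417 and 4850 of the 20156 genes tested did. Voom called 2 higher and 8 lower, where it called 1603 and 2928 of all genes. GADD45B, the paralog of GADD45A, had 3.15 CPM in Day0 libraries, 3.70 in those of Day21 and 78.9 in those of Day42. Its log2 fold change was 4.41 ± 0.81 on Day42 over Day21 (edgeR, adjusted p = 0.00530), and 3.27 without Day42 replicate 3. PLK2, a kinase known in neurons for its part at synapses, had 17.6 CPM in Day0 libraries, 55.2 in those of Day21 and 207 in those of Day42 (log2 fold change 3.55 ± 0.43 on Day42 over Day0, edgeR, adjusted p = 0.000839, and 4.14 with total-count scaling). RPS27L, a ribosomal protein paralog, had 754 CPM in Day0 libraries, 1709 in those of Day21 and 110.2 in those of Day42 (log2 fold change -3.96 ± 0.35 on Day42 over Day21, edgeR, adjusted p = 0.000362). SFN, the protein 14-3-3 sigma, was at 0 on Day42, at least 11.7-fold lower than on Day0 (edgeR, adjusted p = 0.00278). Its mean was 1.71 CPM on Day0 and already 0.147 CPM on Day21, under the limit there of 0.203 CPM.

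**Figure D4:**
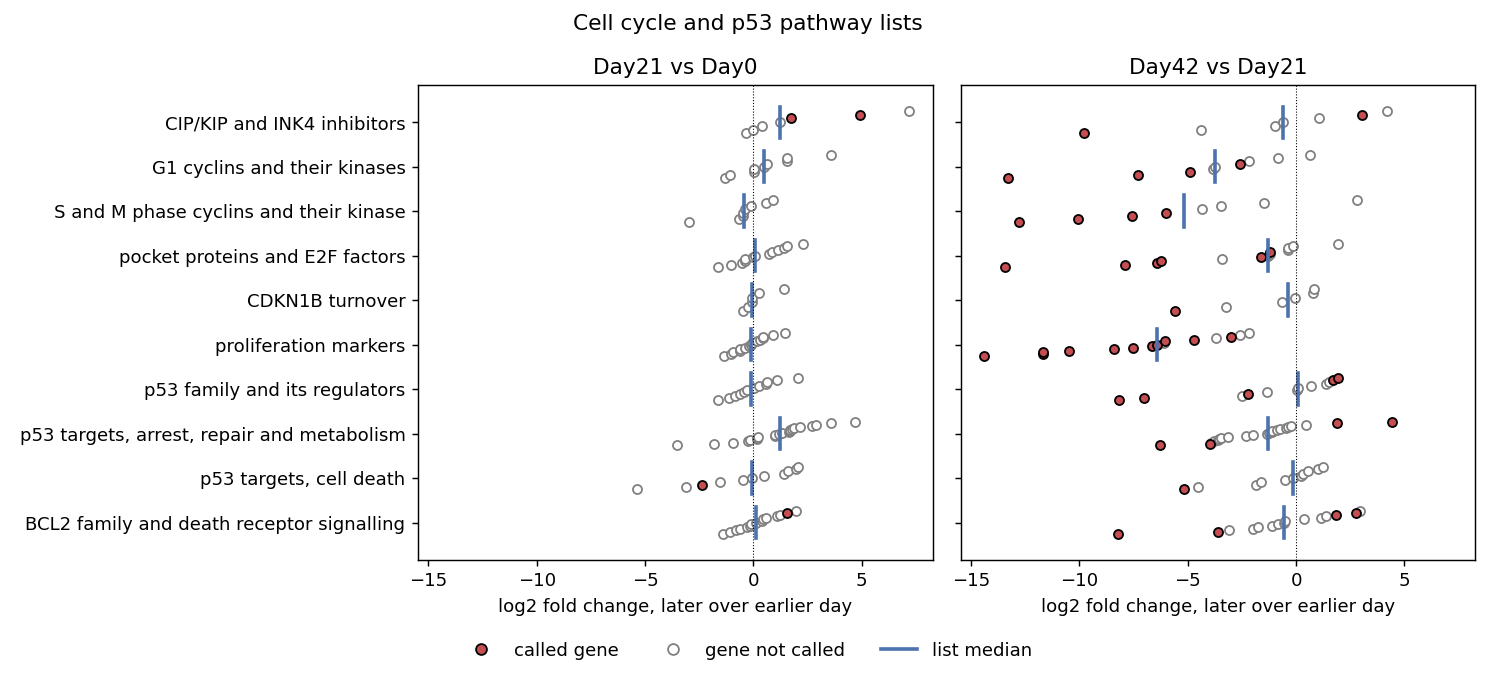
Log2 fold changes of each gene in 10 cell cycle and p53 lists, on Day21 over Day0 and on Day42 over Day21, with called genes filled and a bar at the median of each list. The medians of the proliferation markers are -0.09 on Day21 over Day0 and -6.42 on Day42 over Day21.

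Genes whose pattern was most like that of each member were taken by Pearson's r of log2 CPM over the 9 libraries, which share days and scaling, among about 4655 genes with a mean of at least 5 FPKM. RGS2 and SNAP25 came nearest to CDKN2D (r = 0.994 and 0.992). CNRIP1 and STMN2 came nearest to GADD45A (r = 0.994 and 0.993). AC055839 and MAGED2 came nearest to CDKN1A (r = 0.994 and 0.991), and HSDL1 and SCRN1 to CDKN1B (r = 0.987 and 0.986), both of which were, like CDKN1B, near 0 in Day42 replicate 3. The nearest to CDKN2C were PTX3 and HLTF (r = 0.9755 and 0.937), to CDKN2A HINT2 and AC009005 (r = 0.985 and 0.982), and to FAS AC009005 and PBK (r = 0.992 and 0.990). RSF1 and CBWD2 were nearest to CDKN1C, CHCHD6 and MFF to MDM2, and RNF187 and NPDC1 to BBC3, with r between 0.936 and 0.968.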

How the data were processed

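Trizol was used to extract total RNA and a NEBNext low-input kit to make libraries, per the labels' protocols. Named in the submitters' processing notes are cutadapt 1.9, FastQC and GRCh38. Aligner, counter, strand setting and annotation were not given in the sources used here. A table deposited by the authors holds a raw count per gene and library, and the deposited FPKM, scaled by length and depth. Here, genes kept by filterByExpr (20156) were scaled by TMM and fitted with edgeR 4.0.16 (quasi-likelihood, 1 mean per day, all 9 libraries, R 4.3.3), with adjustment over all genes, and calls needed an adjusted p under 0.05 with a log2 fold change of at least 1 in size. Errors of fold changes are the absolute log2 fold change over the square root of F. The fit was tested on simulated data. DESeq2 1.42.0, limma 3.58.1 on log2(FPKM + 1) and log2(FPKM + 0.1), voom with sample weights, other scalings, no filter, fits with 2 days and each library left out were alternatives. Counts pile up at multiples of 4, so a count of 0 was given a limit of 3 such steps. No pair of libraries held equal counts in more than 2.55% of genes. Named genes are the 10 members, up to 4 called genes per list with the largest change, and the 2 nearest genes per member, and some genes that this rule names are left out here. The members and lists were chosen with earlier results of these data known. Overlaps of gene models are from GENCODE release 29, which holds 96.9% of the identifiers.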

Additional observations from a re-analysis of the deposited data

How the results depend on the processing

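CDKN1A (Day21 and Day42 over Day0), GADD45A (all 3 comparisons) and CDKN2D (Day42 over Day21 and over Day0) were called in all 18 other settings. CDKN2D on Day21 over Day0 was lost in 7. CDKN2A was lost with voom on Day42 over Day0, and FAS on Day42 over Day0 was lost in 2 settings, the fit with only the 2 days compared and limma on log2(FPKM + 1). The causes were not tested. The FPKM settings tested 10619 genes and 6 members. Low counts limit CDKN2A, CDKN2C, FAS and BBC3.

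On Day21 over Day0, the members called higher, 3, became 5 with DESeq2, with the fit to the 2 days and with voom. All genes called were 1389 higher and 1563 lower with DESeq2, 2575 and 2447 with the 2 days, 3734 and 3191 with voom, 616 and 700 with limma on log2(FPKM + 1), 674 and 651 on log2(FPKM + 0.1), and 548 and 488 with total-count scaling, which was chosen after seeing the data. On Day42 over Day21, 2120 genes were called higher with DESeq2, 1998 with total-count scaling, 2110 higher and 1759 lower with limma on log2(FPKM + 1) and 2164 and 1896 on log2(FPKM + 0.1), both with 1 member lower. On Day42 over Day0, 1122 were called higher with the 2 days, and 2079 and 2178 lower with the 2 limma settings, with 0 and 1 member lower. Voom and the 2 days gave 1 member lower there.

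Leaving out 1 library at a time, members called higher ranged over 2 to 4 on Day21 over Day0, 2 to 3 on Day42 over Day21 and 3 to 4 on Day42 over Day0. Members called lower were 2 to 4 on Day42 over Day21. All genes called ranged over 93 to 1489 higher and 45 to 1502 lower on Day21 over Day0, 683 to 2417 higher and 2915 to 5040 lower on Day42 over Day21, and 1120 to 3208 higher and 3653 to 5665 lower on Day42 over Day0. The highest numbers of higher calls came without Day42 replicate 3.

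Some changes that were not called turned sign. CDKN1C on Day21 over Day0 ranged over -0.71 to 0.091 with a library left out. BBC3 on Day42 over Day21 was -0.24 with voom and -0.26 to 1.08 with a library left out. CDKN2C on Day42 over Day0 ranged over -3.64 to 6.52, and MDM2 over -0.98 to 0.17, with 0.18 and 0.17 in limma on log2(FPKM + 1) and log2(FPKM + 0.1), and 0.43 with total-count scaling.

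Deviations of libraries with the same replicate number had correlations of -0.225 to 0.0266, against -0.182 to 0.301 for different numbers. These ranges overlapped and gave no sign of pairing. With 3 libraries per day, such correlations cannot decide whether the numbers pair the libraries. With the replicate number as a block, 76 genes were called higher and 33 lower on Day21 over Day0, 617 and 1803 on Day42 over Day21, and 1051 and 2659 on Day42 over Day0, with 2, 2 and 3 members higher and 0, 2 and 2 lower.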

Other observations

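Of 11 tested p53 targets of cell death that are not among the 10 genes, 0 rose and 1 fell on Day21 over Day0, where 1.32% and 1.18% of all genes did. The counts were 4 and 4 with the 2 days alone, where 12.8% and 12.1% of all genes were called. With DESeq2 they were 0 and 3, where 1389 and 1563 of the 20156 genes tested were called. Without Day42 replicate 3 they were 1 and 4, where 1489 and 1502 were called. On Day42 over Day21, 0 rose and 1 fell, against 6.52% and 19.7% of all genes, with 0 and 0 by the 2 days alone. By DESeq2 the counts were 0 and 3, where it called 2120 and 5092 of all genes. Without Day42 replicate 3 they were 0 and 3, where 2417 and 4850 of all genes were called. BID, a BH3-only protein cut by caspases, had 41.4 scaled CPM on Day21 and 212 on Day0 (log2 fold change -2.36 ± 0.49, edgeR, adjusted p = 0.0493), which did not hold in 7 of the 18 other settings, among them without replicate 1 or 2 of Day0 and without replicate 1, 2 or 3 of Day21, at adjusted p-values up to 0.208. On Day42 it had 37.7 CPM and was called lower than on Day0 (edgeR, adjusted p = 0.00613). The death receptors TNFRSF10A and TNFRSF10B differed in direction. TNFRSF10A had 0.0171 CPM on Day42 and 28.1 on Day0 (edgeR, adjusted p = 0.00226), the Day42 mean being under the limit for a count of 0. It was already at 0.667 CPM on Day21, with every Day21 library below every Day0 library. That log2 fold change, -5.39, missed the threshold (edgeR, adjusted p = 0.0531). TNFRSF10B had 50.4 CPM on Day42 and 12.7 on Day0 (edgeR, adjusted p = 0.0353), which did not hold in 9 of the 18 other settings, among them without replicate 1 or 2 of Day0 or any 1 library of Day21, at adjusted p-values up to 0.111. Its log2 fold change of 1.99 was 1.24 without Day42 replicate 3.

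Of 15 tested genes of the BCL2 family and of death receptor signalling, 2 rose and 2 fell on Day42 over Day21, where 6.52% and 19.7% of all genes did. Without Day42 replicate 3 the counts were 3 and 2, when 2417 and 4850 of the 20156 genes tested were called. MCL1, which protects from cell death, had 161 CPM on Day42 and 23.8 on Day21 (log2 fold change 2.76 ± 0.37, edgeR, adjusted p = 0.00197). CASP8, the caspase that FAS engages, had 2.16 CPM in Day0 libraries, 1.25 in those of Day21 and 0.101 in those of Day42. The Day42 mean was under the limit for a count of 0, and the Day21 mean was 8.58 times that limit. The fitted log2 fold change on Day42 over Day21 was -3.60 ± 0.79 (edgeR, adjusted p = 0.0109). That call did not hold in 2 of 16 other settings, at adjusted p-values up to 0.0755. BMF, a BH3-only protein, was at 0 on Day42 and at 0.578 CPM on Day21.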
